A study of Homo sapiens with 6 samples.

Results

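The miR-146 family was described in extracellular vesicles (EVs) shed by MDA-MB-231, a triple-negative line of human breast cancer. The 2 members, hsa-miR-146a-5p and hsa-miR-146b-5p, were chosen by name from a table of 832 miRNAs (782 with a name from miRBase and 50 predicted). They were taken up because the lower level of miR-146a-5p in the EVs of the knockdown cells, and its difference from miR-146b-5p, were already known from the same libraries. The levels and fold changes of both members are therefore given as a description, and nothing is inferred from their test results.

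Small RNA libraries had been made from the EVs of unmodified MDA-MB-231 cells, whose genotype is labelled WT (231 EV, n = 3), and from the EVs of the same line with ACO1 knocked down (231 ACO1KD EV, n = 3). ACO1 is the cytosolic aconitase that becomes an RNA-binding protein, IRP1, when iron is scarce. The study examined ACO1 as a protein that binds hsa-miR-33a-5p for its packaging into EVs. Small RNA libraries do not measure ACO1 mRNA, so the knockdown itself could not be checked in them, and it is not stated in the sources used here whether the knockdown cells were a single clone or a pool. Medium for EV collection came from nearly confluent cultures in EV-free medium, and vesicles were pelleted by ultracentrifugation. Nothing says that the 3 libraries of a group came from separate cultures, so the spread between them may be technical.

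The miR-146 miRNAs are best known as negative regulators of innate immune signalling. The transcription factor NF-kB induces the MIR146A gene, and the mature miRNA represses IRAK1 and TRAF6, adaptors that carry signals from Toll-like and interleukin-1 receptors to NF-kB, which closes a feedback loop. MIR146B is a separate gene on another chromosome whose product has the same seed, the stretch at bases 2 to 8 that directs a miRNA to its target mRNAs, so both members are predicted to share most targets. In breast cancer cells, including MDA-MB-231, raised miR-146 has been linked to lower NF-kB activity and reduced invasion.

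The mature sequences are shown because the members must be told apart by their 3′ ends alone. They are from RefSeq (GRCh38.p14), written 5′ to 3′ with the seed in capitals.
hsa-miR-146a-5p: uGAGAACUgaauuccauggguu
hsa-miR-146b-5p: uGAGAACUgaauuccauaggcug
The first 17 bases are the same. Of the 22 positions that can be compared, 20 hold the same base, and the differences are G18A and U21C, counted from 1 at the 5′ end with the base of miR-146a-5p first. miR-146b-5p, 23 bases long against 22, also has a final G. The authors kept reads of 18 to 32 nucleotides, so a read that starts at the first base reaches at least the first position that separates the members. How mismatches and trimmed ends were treated in the matching to miRBase is not given in the sources used here. Reads that fit several names equally well appear to have been counted under each: hsa-miR-199a-3p and hsa-miR-199b-3p, which have the same mature sequence, hold 277 and 277 counts in 231 EV replicate 1 and 342 and 341 in 231 ACO1KD EV replicate 1. Whether any read was counted under both miR-146 names was not tested.

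The hairpins show where each mature arm lies, in capitals.
MIR146A: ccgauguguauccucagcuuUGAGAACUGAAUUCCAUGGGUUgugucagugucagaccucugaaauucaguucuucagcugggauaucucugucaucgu
MIR146B: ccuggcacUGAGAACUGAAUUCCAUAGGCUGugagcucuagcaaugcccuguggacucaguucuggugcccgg
Outside the mature arm the hairpins differ in length and sequence, 99 against 73 bases. MIR146A (ENSG00000283733.1) lies at chr5:160485352-160485450 on the plus strand, in exon 2 of the long noncoding RNA MIR3142HG (ENSG00000253522.6) in 2 of its 2 transcripts in GENCODE release 29. The nearest protein-coding gene, PTTG1, is 56608 bases away. MIR146B (ENSG00000202569.4) lies at chr10:102436512-102436584 on the plus strand, overlaps no other annotated gene, and has CUEDC2 as its nearest protein-coding gene, 3851 bases away.

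Total counts were 224948, 230562 and 225006 in 231 EV and 175924, 67873 and 157322 in 231 ACO1KD EV, replicates 1 to 3 in each. TPM here is the count divided by the library's total and brought to the same sum in each library, with no length term. A single read was thus worth 4.34 to 4.45 TPM in 231 EV and 5.68, 14.7 and 6.36 TPM in the knockdown libraries, of which replicate 2 is the shallowest. In chi-square tests over miRNAs, libraries of the same group lay further apart than counting alone gives, by 3.64 to 4.41 per degree of freedom in 231 EV and by 7.21 to 22.6 in 231 ACO1KD EV, so each was kept as a sample and the knockdown libraries are the less alike. TMM, a scaling that lines up the bulk of the miRNAs, gave factors of 0.840 to 0.915 in 231 EV and 1.09 to 1.20 in 231 ACO1KD EV. Over the 517 tested miRNAs it gave a median log2 fold change of -0.03, against 0.32 with library totals, so the choice of scaling moves the median by 0.35. hsa-miR-21-5p alone stood at 299860 ± 13811 TPM in 231 EV and 141140 ± 37525 TPM in 231 ACO1KD EV (SD, n = 3).

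miR-146a-5p was the more abundant member in EVs of unmodified cells and the less abundant in EVs of the knockdown cells. Its counts were 311, 290 and 280 in 231 EV and 50, 22 and 26 in 231 ACO1KD EV. On the TPM scale these are levels of 1383, 1258 and 1244 in 231 EV and 284, 324 and 165 in 231 ACO1KD EV. The groups lie far apart: the upper bounds of the 95% Wilson intervals of the knockdown libraries were 375, 491 and 242 TPM, and the lowest bound among the 231 EV libraries was 1107 TPM. These intervals cover counting error only. Ranked by TPM among the miRBase names, miR-146a-5p stood at places 62, 65 and 65 in 231 EV and at places 120, 118 and 158 in 231 ACO1KD EV.

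The mean TPM of miR-146a-5p was 1295 ± 76.2 in 231 EV and 258 ± 82.6 in 231 ACO1KD EV (SD, n = 3), a ratio of 5.02. The fitted log2 fold change on the TMM scale was -2.72 (SE 0.24), a level 6.57-fold lower in 231 ACO1KD EV. Of the 517 tested miRNAs, 8 had a lower log2 fold change than miR-146a-5p, 5 of them with a miRBase name. None of these 5 exceeded 8 counts in any library, and 0 of them had a mean of 50 TPM or more over the 6 libraries. The predicted miRNAs with a lower value included some with more reads. 17_13416 was at -4.34, with 601, 496 and 481 counts in 231 EV, and 1_1679 at -3.06, with 46, 75 and 63. Within the knockdown group, replicate 3 had the lowest level and replicate 2 the widest interval, 214 to 491 TPM, and the coefficient of variation was 32% against 5.88% in 231 EV. Whether the knockdown cells shed fewer vesicles that carry miR-146a-5p or vesicles with fewer copies cannot be told apart in such bulk EV libraries. All 6 libraries are of EVs, so the level of miR-146a-5p inside the cells was not measured.

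miR-146b-5p, the paralog from the other chromosome, was nearer to its level in unmodified cells. Its counts were 150, 175 and 159 in 231 EV and 70, 55 and 78 in 231 ACO1KD EV. The TPM levels were 667, 759 and 707 in 231 EV and 398, 810 and 496 in 231 ACO1KD EV, so the groups overlap on this scale: knockdown replicate 2 exceeds all 3 libraries of 231 EV, and knockdown replicates 1 and 3 are below them. The 95% Wilson interval of that replicate, 623 to 1055 TPM, overlaps the interval of each 231 EV library. On the TMM scale the levels (scaled counts, on the same base as TPM) were 729, 846 and 841 in 231 EV and 359, 677 and 454 in 231 ACO1KD EV.

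The mean TPM of miR-146b-5p was 711 ± 46.2 in 231 EV and 568 ± 215 in 231 ACO1KD EV (SD, n = 3), a ratio of 1.25. Its fitted log2 fold change was -0.73 (SE 0.24) on the TMM scale, or 1.66-fold lower, and 104 of the 517 tested miRNAs had a lower value. With library totals in place of TMM it was -0.37. Both members were past an adjusted p of 0.05 in edgeR's quasi-likelihood test, where 8.51% of all tested miRNAs were. Of the tested miRNAs 6.0% were lower and 2.51% were higher in 231 ACO1KD EV. Because the members were taken up for this contrast, nothing is read from their 2 of 2, or from the tallies of their calls that follow. Across 17 other ways of processing, miR-146a-5p was past the threshold in 17, and miR-146b-5p in 6. The calls lost for miR-146b-5p included those with library totals, with limma at each of 3 pseudocounts, and without any 1 of the 3 libraries of 231 EV or without knockdown replicate 1.

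**Figure D1:**
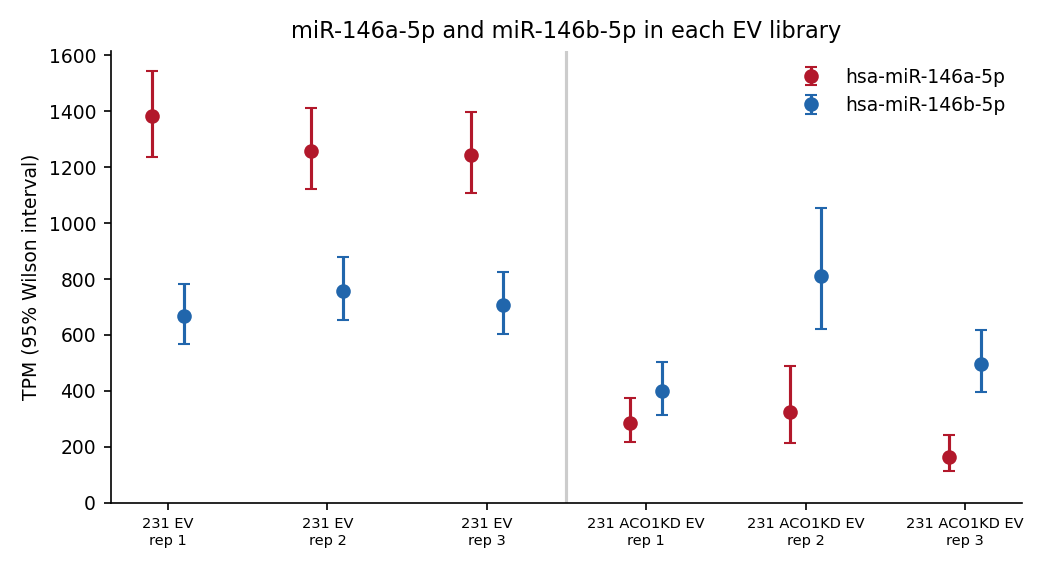
Level of hsa-miR-146a-5p (red) and hsa-miR-146b-5p (blue) in TPM (vertical axis, from 0) in each of the 6 EV libraries (horizontal axis), with bars for the 95% Wilson interval of the count. The red points sit at 1244 to 1383 TPM in 231 EV and at 165 to 324 TPM in 231 ACO1KD EV, and the blue points of the groups overlap.

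The 2 members can be compared within a library, where depth and scaling cancel. The ratio of miR-146a-5p to miR-146b-5p counts was 2.07, 1.66 and 1.76 in 231 EV and 0.714, 0.400 and 0.333 in 231 ACO1KD EV. The order of the paralogs was therefore switched: miR-146a-5p was the more abundant in every library of 231 EV and the less abundant in every library of 231 ACO1KD EV. The mean log2 ratio was 0.87 ± 0.17 in 231 EV and -1.13 ± 0.57 in 231 ACO1KD EV (SD, n = 3), a 3.99-fold difference. The fitted log2 fold changes of the members differed by -1.99.

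Expressed as a share of the reads of both members, miR-146a-5p made up 67.5%, 62.4% and 63.8% in 231 EV, of 461, 465 and 439 reads. In 231 ACO1KD EV it made up 41.7%, 28.6% and 25.0%, of 120, 77 and 104 reads. The 95% Wilson intervals of the 231 EV libraries span 57.9% to 71.6% and stay above equal shares. In the knockdown libraries they run from 33.2% to 50.6%, from 19.7% to 39.5% and from 17.7% to 34.1%, so that in replicate 1 equal shares lie just inside the interval and the switch in order is within counting error there. The mean share was 64.5% ± 2.63 against 31.7% ± 8.78 (SD, n = 3).

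**Figure D2:**
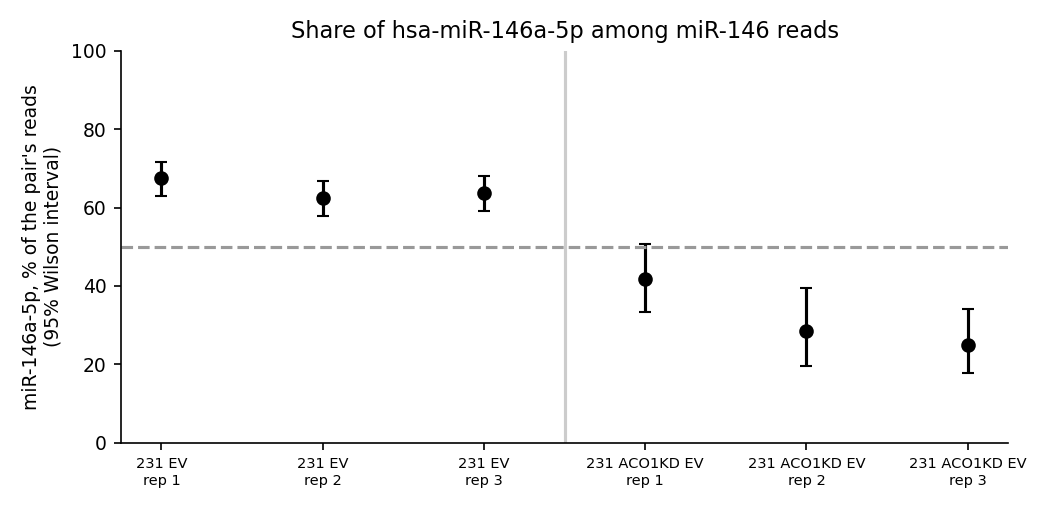
Share of hsa-miR-146a-5p among the reads of both miR-146 members (vertical axis, percent) in each EV library (horizontal axis), with 95% Wilson intervals and a dashed line at equal shares. The points lie between 62.4% and 67.5% in 231 EV and between 25.0% and 41.7% in 231 ACO1KD EV.

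As both members carry the seed GAGAACU, their summed level is the share of this seed among the miRNA reads of a library. The sum was 2049, 2017 and 1951 TPM in 231 EV and 682, 1135 and 661 TPM in 231 ACO1KD EV. The means were 2006 ± 50.1 and 826 ± 267 TPM (SD, n = 3), a ratio of 2.43. On the TMM scale the means were 2270 ± 45.7 and 723 ± 195, a ratio of 3.14. Among 612 seeds formed by the 715 miRNAs with a RefSeq sequence, the miR-146 seed ranked at places 31, 32 and 32 in 231 EV and at places 51, 45 and 52 in 231 ACO1KD EV. Another human miRNA with this seed, hsa-miR-7153-5p, has no entry among the 832 miRNAs.

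The opposite arm of miR-146b-5p was close to the detection limit. hsa-miR-146b-3p, from the other side of the MIR146B hairpin, was read 1, 1 and 2 times in 231 EV and 0, 0 and 1 times in 231 ACO1KD EV, and a library without reads could still hold 3, a floor of 13.0 to 13.3 TPM for 231 EV that stands at 17.1, 44.2 and 19.1 TPM in the knockdown replicates. No difference was detectable at this depth. hsa-miR-146a-3p and hsa-miR-3142, which is encoded in the same host transcript as MIR146A, have no entry among the 832 miRNAs.

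The mature sequences were searched for 3 short motifs that have been named for proteins linked to miRNA loading into EVs. CAUUG, which the study gives as the ACO1 site in hsa-miR-33a-5p, is in neither member. It is in 40 of 2351 mature human miRNAs of RefSeq (1.70%) and in 18 of the 435 tested miRNAs with a sequence (4.14%). GGAG, a motif of the RNA-binding protein hnRNPA2B1, is in neither, and is in 7.36% of the tested miRNAs with a sequence. GGCU, a motif of the RNA-binding protein SYNCRIP, starts at position 19 of miR-146b-5p and is not in miR-146a-5p, and 11.5% of the tested miRNAs with a sequence hold it. The members thus differ in GGCU, whose letters include one of the bases that separate them. A match or its absence is a property of the letters and does not show binding or its absence.

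The promoter of MIR3142HG, from which the MIR146A transcript starts, holds a match to a kappaB sequence, the DNA element bound by NF-kB. It is printed in capitals, from chr5:160468121-160468150 on the plus strand of GRCh38.p14, and starts 120 bases before the start site.
MIR3142HG promoter: ggatctagaaGGGACTTTCCagagagggtt
The motif searched was the kappaB consensus, on both strands, and 3956 of 35116 promoters of the same length (11.3%) hold a match. No promoter sequence was used for MIR146B. EV libraries do not measure transcription, so the match is shown as context for the locus.

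Other paralogs with a shared seed gave a yardstick for the split between miR-146a-5p and miR-146b-5p. Pairs were formed from names that differ only in the letter, with the same arm, the same seed and a mean of at least 50 TPM for both. This gave 47 pairs from 15 families, of which 28 are let-7 pairs that share members. The absolute difference between the log2 fold changes of the paralogs was 1.99 for miR-146, and its median over the other 46 pairs was 0.17. The largest of the others was 1.65, for hsa-miR-135a-5p (-2.06) and hsa-miR-135b-5p (-0.41), and the next was 0.63, for hsa-miR-30a-5p (-0.43) and hsa-miR-30c-5p (0.20). hsa-miR-135a-5p had 27, 18 and 28 reads in 231 EV, and 7, 1 and 5 in 231 ACO1KD EV, so this pair rests on few reads. The ratio of the paralogs did not overlap between the groups in 18 of the other 46 pairs, and in 0 of them did the more abundant member switch. As miR-146 was chosen for its split, its place at the end of this order is a description.

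To place the family within its pathway, 22 further miRNAs that NF-kB induces or that act on NF-kB signalling were examined, of which 21 were in the table and were tested. In 231 ACO1KD EV 6 were lower, 2 were higher, and 13 did not pass the test. That is 38.1% past the threshold beside 8.51% of all tested miRNAs, and the median log2 fold change of the list was -0.14 beside -0.03 for all. The list was chosen with earlier results of these data known, so these shares are a description. It was not matched in abundance to the tested miRNAs, many of which have few reads. Its lower miRNAs hsa-miR-21-5p, hsa-miR-221-3p and hsa-miR-222-3p are also mesenchymal or basal markers in the list given below. What the share owes to NF-kB was not tested. With library totals 10 miRNAs of the list passed, 3 lower and 7 higher, so the balance of directions depends on the scaling. Adjusted p-values given for its miRNAs come from the same edgeR fit and are adjusted over the 517 miRNAs.

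Among the miRNAs that passed with a lower level was hsa-miR-21-5p, an abundant miRNA of tumour cells that represses PDCD4, with a log2 fold change of -1.44 (SE 0.12, adjusted p = 7.14e-31). hsa-miR-221-3p and hsa-miR-222-3p, neighbours in the genome with a common seed that repress the cell cycle inhibitor p27, had -0.87 (SE 0.13, adjusted p = 7.47e-09) and -0.56 (SE 0.18, adjusted p = 0.0295). hsa-miR-132-3p, which is induced along with miR-146a by Toll-like receptor signals in monocytes, had 114, 101 and 107 reads in 231 EV, against 49, 13 and 59 reads in 231 ACO1KD EV. Its log2 fold change was -1.04 (SE 0.26, adjusted p = 0.00204), and with library totals it was -0.70 (adjusted p = 0.0564). hsa-miR-10a-5p, which restrains NF-kB activation in endothelium, had -0.79 (SE 0.16, adjusted p = 2.73e-05), and hsa-miR-181b-5p, which acts on importin-alpha3 and CYLD, had -0.81 (SE 0.24, adjusted p = 0.0116). Each of these 6 had a fitted value nearer to 0 than that of miR-146a-5p. Of the 17 alternatives, hsa-miR-222-3p passed in 5 and hsa-miR-181b-5p in 10. The size of the adjusted p also depends on the processing. With edgeR's robust option it was 0.0424 for hsa-miR-21-5p and 0.0022 for hsa-miR-221-3p.

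The higher miRNAs of the list were hsa-miR-199a-5p, a repressor of IKKbeta, with 1.25 (SE 0.35, adjusted p = 0.00981) and counts of 18, 18 and 11 against 42, 21 and 18, and hsa-miR-223-3p, a myeloid miRNA, with 0.51 (SE 0.16, adjusted p = 0.0226). They passed in 14 and 13 of the 17 alternatives, and every call lost was with 1 library left out.

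Of the list's miRNAs that did not pass, hsa-miR-155-5p is the closest counterpart of miR-146a, induced by the same receptors. Its counts were 13, 11 and 25 in 231 EV and 12, 11 and 13 in 231 ACO1KD EV, and its log2 fold change was 0.03 (SE 0.43, adjusted p = 0.984), a wide error at this depth. hsa-miR-9-5p, a repressor of NFKB1, had -0.14 (adjusted p = 0.839). hsa-miR-125b-5p had 0.10 (adjusted p = 0.757) and hsa-miR-16-5p had -0.04 (adjusted p = 0.914).

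**Figure D3:**
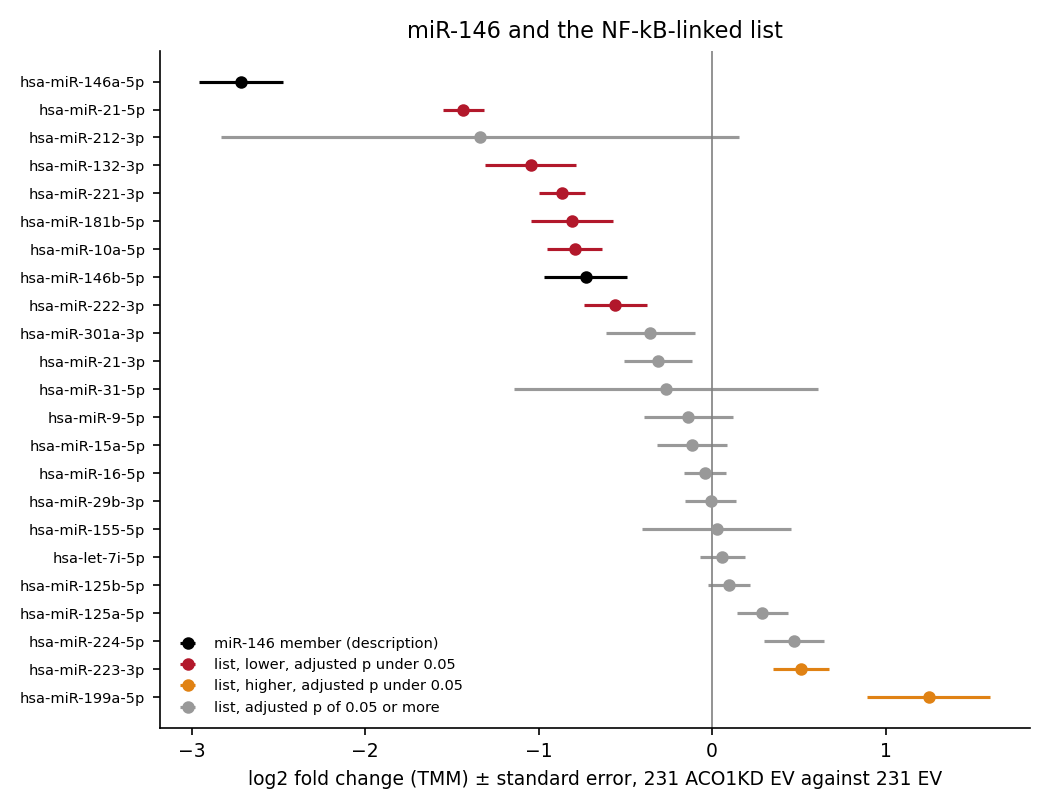
Log2 fold change of 231 ACO1KD EV against 231 EV (horizontal axis, TMM scale, bars are the standard error) for the 2 miR-146 members (black) and the 21 tested miRNAs of the NF-kB-linked list (vertical axis, ordered by value). Red marks the 6 list miRNAs that were lower, orange the 2 that were higher, and grey the 13 that did not pass. miR-146a-5p stands at -2.72, farther from 0 than each list miRNA.

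**Figure D4:**
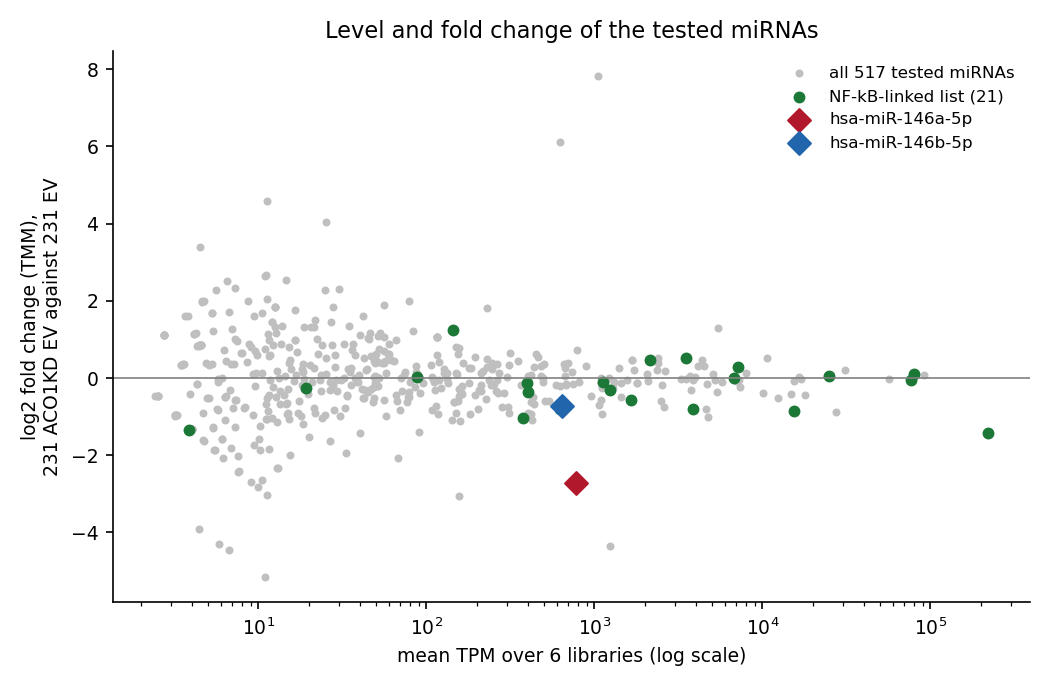
Log2 fold change of 231 ACO1KD EV against 231 EV (vertical axis, TMM scale) against the mean TPM over the 6 libraries (horizontal axis, log scale) for the 517 tested miRNAs (grey), the NF-kB-linked list (green) and the miR-146 members (diamonds). Low miRNAs scatter widely, and miR-146a-5p stands below the other miRBase-named miRNAs with a mean of 50 TPM or more.

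Markers of other cells were looked at beside the members, since miR-146a is abundant in leukocytes and serum used in culture can carry miRNAs. All 10 blood-cell markers were detected in every library, and their summed level was 18862 to 21449 TPM in 231 EV, against 29017 to 33563 TPM in 231 ACO1KD EV. By the test 2 were lower, hsa-miR-451a at -0.94 (adjusted p = 0.000136) and hsa-miR-486-5p at -1.08 (adjusted p = 0.000928), which are red-cell miRNAs. 3 were higher, hsa-miR-223-3p as given above, hsa-miR-150-5p at 0.72 (adjusted p = 0.0215) and hsa-miR-126-3p at 0.52 (adjusted p = 0.00509), and 5 did not pass, so that 5 of 10 were past the threshold beside 8.51% of all tested miRNAs. This list was also chosen with earlier results known, so that share is a description. On the TPM scale the summed blood-cell signal was higher in 231 ACO1KD EV. With library totals, the median log2 fold change of all tested miRNAs was itself 0.32. hsa-miR-126-3p held the largest part of the sum, with means of 7474 TPM in 231 EV and 13767 TPM in 231 ACO1KD EV. On the TMM scale the median log2 fold change of the list was 0.18, beside -0.03 for all tested miRNAs. The part of such markers in the miR-146 values was not tested. hsa-miR-122-5p, a liver miRNA that serum carries, was at 1094 to 1324 TPM and 985 to 1887 TPM and did not pass.

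The line itself was checked with miRNAs of mesenchymal or basal cancer cells and of epithelial or luminal cells. The 7 mesenchymal or basal markers summed to 457760 to 486450 TPM in 231 EV, against 314000 to 376460 TPM in 231 ACO1KD EV, with 5 lower and 0 higher, or 71.4% past the threshold beside 8.51% of all tested miRNAs. hsa-miR-21-5p was the largest part of this sum, with means of 299860 TPM in 231 EV and 141140 TPM in 231 ACO1KD EV. Mean TPM was higher in 231 ACO1KD EV for hsa-miR-125b-5p (92867 against 67609) and hsa-miR-29a-3p (63569 against 50373), and lower for the rest. The 8 epithelial or luminal markers summed to 880 to 1022 TPM and 634 to 998 TPM, with 1 lower (hsa-miR-205-5p, -0.93, adjusted p = 0.00749) and 3 at 0 in some library. Their 12.5% past the threshold is near the 8.51% of all tested miRNAs. These marker lists were chosen with earlier results known as well, so their shares are a description. The part of these markers in the miR-146 values was not tested.

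The level of miR-146a-5p over the 6 libraries was most like that of a predicted miRNA, 17_13416 (Pearson r of log2(TPM + 1) = 0.976), followed by hsa-miR-10395-3p (0.968), hsa-miR-377-3p (0.945), the predicted 1_1679 (0.933) and hsa-miR-3679-5p (0.925). The counts of 17_13416 were 601, 496 and 481 in 231 EV and 23, 12 and 22 in 231 ACO1KD EV. The 3 miRBase-named miRNAs in this list had at most 6 counts in a library and were at 0 in all knockdown libraries, so they say little. For miR-146b-5p the 5 most alike, led by hsa-miR-3934-5p (0.953), also had at most 6 counts in any library. When only miRNAs with a mean of 50 TPM or more were considered, a limit chosen after these values were seen, the named miRNAs most like miR-146a-5p were hsa-miR-451a (0.839) and hsa-miR-135a-5p (0.833). Under the same limit hsa-miR-320a-3p was the most like miR-146b-5p (0.894), read 121, 141 and 127 times in 231 EV, against 75, 48 and 59 times in 231 ACO1KD EV. The members themselves were less alike, with r = 0.590, and 43 and 48 of the tested miRNAs were more like miR-146a-5p and miR-146b-5p than its paralog was. All these correlations are over 6 libraries in 2 groups that share depth and scaling, and are a description.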

How the data were processed

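Small RNA libraries of EVs from 6 samples (3 of 231 EV, 3 of 231 ACO1KD EV) were analysed. The authors trimmed the reads, kept those of 18 to 32 nucleotides, removed other RNA classes with Rfam, matched the rest to miRBase by BLAST, and used Mireap or miRDeep2 to predict miRNAs without a name. The submitters' processing notes also name Bowtie2, StringTie and hg38, without a role. What the authors deposited is a raw read count for every miRNA and library with, beside it, a TPM value. The TPM values equal the count divided by the library's total (largest departure 4.99e-05 TPM).

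From the counts, edgeR 4.0.16 (R 4.3.3) was fitted to the 517 miRNAs read in 3 or more of the 6 libraries, with TMM scaling, the quasi-likelihood test and Benjamini-Hochberg adjustment. The common dispersion was 0.0433 (biological coefficient of variation 20.8%). The script was tested on simulated data. Alternatives were library totals, median centring, no filter, a mean TPM of at least 10, DESeq2 1.42.0 (the study's tool), limma 3.58.1 on log2(TPM + 0.1, 1 or 10), edgeR's robust option, a replicate block, and each library left out. Library totals without hsa-miR-21-5p were added after seeing the data. Wilson intervals are at 95% and used the library total or the reads of both members.

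The members and lists were chosen with earlier results of these data known. Named miRNAs are the members, their other arms, miRNAs with the same seed, hsa-miR-3142, the NF-kB-linked list (those past an adjusted p of 0.05 and up to 6 others), the 5 miRNAs of highest Pearson r to each member, and the 3 paralog pairs of the largest difference. Seeds and promoters are from RefSeq (GRCh38.p14), gene positions from GENCODE 29. Of 86 candidate paralog names, 9 had no reference sequence and were left out.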

Additional observations from a re-analysis of the deposited data

How the results depend on the processing

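Neither member's log2 fold change changed sign in any of 17 alternatives. miR-146a-5p ranged from -2.85 to -2.34, the latter (-2.335) with limma at a pseudocount of 10, and from -2.85 to -2.47 when a library was left out. miR-146b-5p ranged from -0.98 to -0.37, and from -0.98 to -0.52 with a library left out. The difference between the members ranged from -2.33 to -1.78 with a library left out. The number of miRNAs past the threshold was 44 (31 lower and 13 higher), 71 with library totals (13 lower and 58 higher), 75 and 76 with limma at pseudocounts of 1 and 10, 57 at 0.1 (12 lower and 45 higher), 40 with DESeq2 (25 lower and 15 higher), 47 with median centring (25 and 22), 52 with a mean TPM of at least 10 (30 and 22), and 50 with totals without hsa-miR-21-5p (27 and 23). It was 19 without 231 EV replicate 3, 21 without replicate 1, 29 without replicate 2, and 65 without 231 ACO1KD EV replicate 3. The NF-kB-linked list had 8 past the threshold, 4 without 231 EV replicate 3 or without 231 ACO1KD EV replicate 1, 5 without 231 EV replicate 1, and 10 without 231 ACO1KD EV replicate 3. The cause of these shifts was not tested.

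The groups share replicate numbers that nothing ties to a shared culture. Same-numbered libraries correlated in their deviations from the group means by 0.11, 0.12 and 0.002, so the numbers were not taken to pair the libraries. With a replicate block the log2 fold changes were -2.74 and -0.75, their difference -1.99, and 44 miRNAs passed, 8 of them in the NF-kB-linked list. Depth limits miRNAs with few reads, such as hsa-miR-155-5p and hsa-miR-146b-3p, most in 231 ACO1KD EV replicate 2.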
